A study of Mus musculus with 12 samples.

Results

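The livers compared here are those with the most and the least Igfbp1 transcript within each genotype, a description of differences between mice of the same genotype. Members were chosen by ranking the 6 wild-type (WT) and the 6 knockout (KO) livers separately by their normalized Igfbp1 count. The top 3 of each genotype form the high group and the bottom 3 the low group, 6 livers against 6, which takes in all 12 livers of the study. These 2 groups are made from the data and are not groups of the study. A p-value below is therefore one of association with the Igfbp1 order among these livers. Igfbp1 itself was left out of every comparison of high with low livers. Between high and low livers limma and edgeR called no gene, among the genes of insulin action or elsewhere, and DESeq2 called 12. What follows gives the values, the intervals and the livers behind these counts.

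All 12 livers came from female mice aged 3 weeks, taken at about 10 am around weaning and frozen. The 6 KO mice lack Lcorl, which encodes a nuclear relative of the corepressor Lcor, throughout the body, and the 6 WT mice do not. The study asked how the liver transcriptome of KO mice differs from that of WT mice. The labels name no treatment and give no feeding state, blood glucose or insulin. The labels number the mice, which are written here as WT 1 to WT 6 and KO 1 to KO 6. Lcorl averaged 268 normalized counts in the low and 282 in the high WT livers, against 0 in the low and 0.942 in the high KO livers.

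Igfbp1 encodes a secreted protein that binds insulin-like growth factors and is made mainly by hepatocytes. Insulin shuts its transcription off within hours of a meal by driving the transcription factor FOXO1 out of the nucleus, and glucagon, glucocorticoids and amino acid shortage turn it on. Genes under the same control include Pck1 and G6pc of gluconeogenesis and Irs2 of insulin signalling, while insulin raises Srebf1. Igfbp1 was used as a proxy of low insulin or fasting, and whether the split follows feeding was not tested.

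Igfbp1, at chr11:7197782-7202546 on the plus strand of GRCm38, spanned 63.0-fold among WT livers and 9.13-fold among KO livers. The high WT livers held 4272 (WT 4), 10839 (WT 5) and 12600 (WT 6) normalized counts, and the low WT livers 3323 (WT 1), 2738 (WT 2) and 199.98 (WT 3). In KO the high livers held 38965 (KO 2), 47869 (KO 5) and 15840 (KO 6), and the low livers 5242 (KO 1), 9572 (KO 3) and 11148 (KO 4). The split is narrow at its edge: the liver just inside the high group held 1.29 times the one just outside it in WT (4272 against 3323) and 1.42 times in KO (15840 against 11148). The low KO livers overlap the high WT livers, so high and low have a meaning only within a genotype. WT 3 stands alone at the bottom of its genotype.

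**Figure D1:**
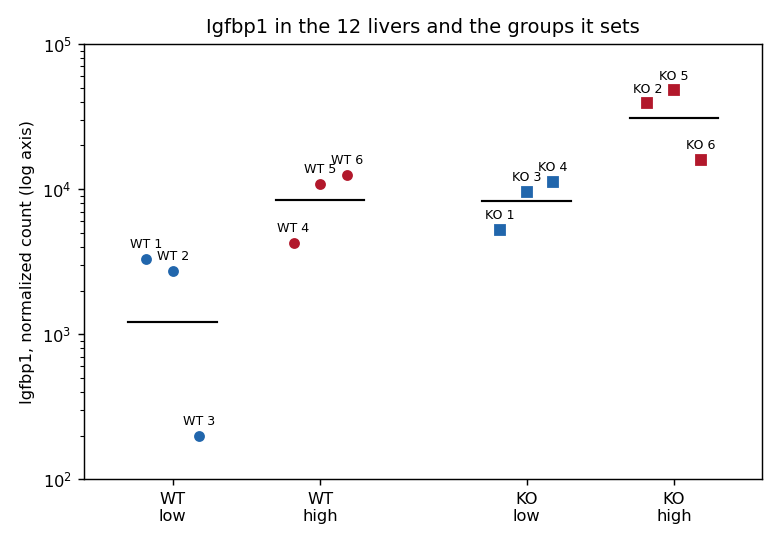
Igfbp1 in normalized counts (log axis) for each of the 12 livers, by genotype and Igfbp1 group; circles are WT, squares KO, red high, blue low, and bars the geometric mean of 3 livers. WT 3 lies at 199.98, far under the other WT livers, and the low KO livers reach the level of the high WT livers.

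The split follows the animal numbers to a large extent. Numbers fall into 4 runs when a gap of 10 or more starts a new run. The numbers of WT 3 and KO 2 are exactly 10 apart, so the border of runs 2 and 3 sits on this limit. With a slightly larger limit WT 2 and WT 3 would share a run with WT 4, and the values with the run would differ. No other limit was tried. Runs 1 (WT 1, KO 1) and 2 (WT 2, WT 3) hold only low livers and run 4 (WT 5, WT 6, KO 5, KO 6) only high ones. Run 3 alone holds both, with WT 4 and KO 2 high and KO 3 and KO 4 low. The labels do not say what the numbers stand for, and Igfbp1 group and run cannot be told apart outside run 3. A fit with the run as a term therefore rests on the 4 livers of run 3. Within a genotype, that is KO 2 against KO 3 and KO 4. WT 4 has no other WT liver in its run and enters through the genotype term. The log2 difference of this fit is given in parentheses below, as the value with the run. It is given for a gene with an interval, where it differs by over 1.5 times or in sign. Depth was alike, with 22788516 to 31296485 reads in low and 21769795 to 30077708 in high livers. The 9 hepatocyte markers in the table summed to 3423680 to 4215530 normalized counts in low and 3615600 to 3989430 in high livers. Markers of other cells overlapped between high and low livers. Lymphocyte and neutrophil markers summed to 1804 to 6820 in low and 1293 to 2278 in high livers (exact permutation test, p = 0.055, adjusted p = 0.373). Of these markers 11 of 12 were lower on average in the high livers, against 6673 of 13568 genes tested. That count was 8 of 12 without WT 2 or KO 2, and 12 of 12 without WT 6 or KO 6. Adipocyte markers summed to 8544 to 15421 in low and 1530 to 22574 in high livers, and pancreatic acinar markers to 193 to 431 and 173 to 558. In whole tissue, fewer cells of a type and less RNA per cell cannot be told apart.

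The promoters of Igfbp1 and of 3 genes described below are shown because FOXO1 is known to act at such genes through short promoter motifs. Each window is the 250 bases before the RefSeq start on GRCm38.p6. Gene coordinates in this text are from GENCODE instead, whose gene ends differ, so the G6pc window reaches into the GENCODE gene and the Irs2 window lies apart from it. The motifs searched were the FOXO motif GTAAACA and the insulin response sequence CAAAACA, on both strands. Capitals mark the match on the printed strand, where TGTTTTG is CAAAACA read from the other strand. The windows lie at chr11:7197537-7197786 (plus strand) for Igfbp1, chr8:11008930-11009179 (minus strand) for Irs2, chr11:101367466-101367715 (plus strand) for G6pc and chr17:71204404-71204653 (plus strand) for Lpin2. These 3 were picked from the insulin, glucagon and lipid lists after their values were seen, and all 3 had a higher mean in high livers.
Igfbp1: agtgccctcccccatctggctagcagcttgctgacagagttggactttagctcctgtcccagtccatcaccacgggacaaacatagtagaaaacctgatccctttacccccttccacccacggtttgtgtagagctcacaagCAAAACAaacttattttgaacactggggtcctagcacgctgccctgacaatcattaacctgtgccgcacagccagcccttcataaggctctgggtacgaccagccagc
Irs2: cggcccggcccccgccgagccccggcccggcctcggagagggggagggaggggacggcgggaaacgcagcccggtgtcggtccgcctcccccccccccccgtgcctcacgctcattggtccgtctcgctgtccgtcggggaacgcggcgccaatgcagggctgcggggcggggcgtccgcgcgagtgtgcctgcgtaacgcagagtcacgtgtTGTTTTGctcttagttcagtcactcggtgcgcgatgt
G6pc: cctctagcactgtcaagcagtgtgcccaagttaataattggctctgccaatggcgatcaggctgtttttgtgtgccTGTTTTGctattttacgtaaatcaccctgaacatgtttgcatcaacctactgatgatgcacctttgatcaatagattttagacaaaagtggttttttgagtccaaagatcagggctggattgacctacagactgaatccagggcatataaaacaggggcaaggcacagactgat
Lpin2: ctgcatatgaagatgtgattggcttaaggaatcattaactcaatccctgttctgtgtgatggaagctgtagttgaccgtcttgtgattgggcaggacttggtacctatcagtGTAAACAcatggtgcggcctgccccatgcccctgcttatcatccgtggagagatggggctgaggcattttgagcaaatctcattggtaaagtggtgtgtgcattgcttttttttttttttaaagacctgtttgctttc
Igfbp1 holds CAAAACA with its first base 108 bases before the start, Irs2 and G6pc hold it on the other strand at 37 and 174 bases before the start, and Lpin2 holds GTAAACA at 138 bases. GTAAACA is in 3.17% and CAAAACA in 5.56% of all 32851 windows of this length, and one or the other in 8.51%. Of the 127 genes the naming rule picked, 101 have a window and 8 of these hold GTAAACA or CAAAACA. They are the 3 shown, with log2 differences of 1.38 for Irs2, 0.96 for G6pc and 0.77 for Lpin2, and 5 that had a lower mean in high livers. Those 5 are Clock (−0.38), Ajuba (−0.42), Ehhadh (−0.20), Bub1 (−0.67) and Nusap1 (−0.52), so genes with these motifs went both ways. Counting also the cyclic AMP response element TGACGTCA (in 1.55% of all windows), the sterol regulatory element TCACNCCAC (1.05%) and the PPAR response element (0.0335%), 11 of the 101 hold a motif. Pck1 has a window without GTAAACA or CAAAACA. A match is a description of letters and not a binding site.

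Over 13568 genes with a mean of at least 10 normalized counts, limma with genotype as a term called 0 genes higher (0%) and 0 lower (0%) at an adjusted p under 0.05, and the smallest adjusted p was 0.554. At an unadjusted p under 0.05 it listed 375 genes higher (2.76%) and 320 lower (2.36%). The p-values were spread evenly, with 646 to 726 genes in each of 20 bins from 0 to 1. High and low livers did not overlap in either genotype, with high above low in both, for 45 genes (0.332%), and with high below low in both for 30 (0.221%). Another 62 genes were separated in opposite ways in WT and KO. edgeR's quasi-likelihood test on recovered reads also called 0 genes, with 729 at an unadjusted p under 0.05, and DESeq2 called 12, 11 higher and 1 lower. The median SE of a log2 difference was 0.119.

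**Figure D2:**
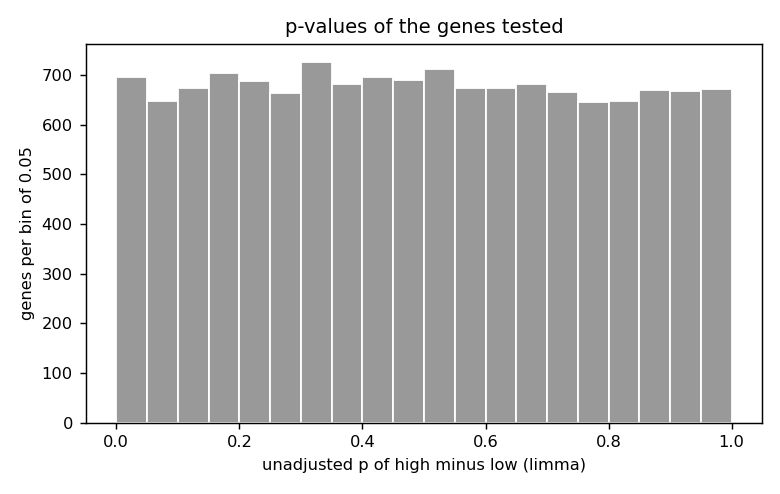
Number of genes (vertical axis) per bin of 0.05 of the unadjusted limma p for high minus low (horizontal axis), over 13568 genes. The bars run from 646 to 726 genes with no peak at small p, where the first bin holds 695.

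The genes nearest to a difference on the higher side were Fam63b, Lgr5, Gne and Tcp11l2, each with an adjusted p of 0.554 (limma). Fam63b encodes a deubiquitinase. It held 582, 735 and 735 normalized counts in the high and 366, 401 and 403 in the low WT livers, and 529.7, 535 and 664 in the high and 342, 440.0 and 484 in the low KO livers. High and low livers did not overlap in either genotype, and the log2 difference was 0.63 with a 95% interval of 0.39 to 0.87 (0.34 with the run). Lgr5, at chr10:115450311-115587780, encodes a receptor for R-spondins that strengthens Wnt signalling and is expressed by hepatocytes around the central vein. It held 291, 309.7 and 452 normalized counts in the high and 116, 124 and 168 in the low WT livers, and 346, 435 and 556 in the high and 249, 253 and 329.9 in the low KO livers. High livers were above low livers in both genotypes, with a log2 difference of 1.01 with a 95% interval of 0.62 to 1.40 (0.39 with the run). Gne, at chr4:44034075-44084177, encodes the enzyme that starts sialic acid synthesis. Its levels were 4559.6, 5952 and 6525 normalized counts in the high and 4049.7, 4292 and 4647 in the low WT livers, and 6058, 6064 and 6364 in the high and 4006, 4251 and 4522 in the low KO livers. High and low livers were apart in KO and overlapped in WT, where WT 4 lay among the low livers. High minus low was, in log2, 0.46 with a 95% interval of 0.27 to 0.64, and its adjusted p was 0.0264 without WT 4.

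The others complete the 12 of smallest p on that side, with log2 differences from 0.20 to 0.98 and adjusted p-values from 0.766 to 0.946 (limma). Crebrf, a nuclear regulator of the response to nutrient shortage, held 345, 692 and 941 normalized counts in the high and 274, 306 and 318 in the low WT livers, and 717, 827 and 1103 in the high and 387, 433 and 567 in the low KO livers. Its high and low livers were apart in both genotypes, narrowly so in WT, and the log2 difference was 0.98 with a 95% interval of 0.53 to 1.42 (0.45 with the run). Atg14, a subunit of the lipid kinase that starts autophagy, had a log2 difference of 0.83 with a 95% interval of 0.39 to 1.28, apart in KO and overlapping in WT. Slc16a10 carries aromatic amino acids across the plasma membrane, and Slc19a2 carries thiamine. The log2 differences were 0.71 and 0.49. Mars, the methionine tRNA ligase, had a small but even log2 difference of 0.20 with a 95% interval of 0.11 to 0.30. The others were Coq10a (0.37), Klhl24 (0.57) and Tmem55b (0.35). Of the 12 genes, 7 were apart in both genotypes, against 0.332% of all genes tested. They were picked by smallest p in this same comparison, so the count describes the choice.

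On the lower side the smallest p belonged to Itga5, the integrin alpha-5 subunit of the fibronectin receptor, at chr15:103344286-103366763. It held 813, 819.8 and 952 normalized counts in the high and 1116, 1267 and 1313 in the low WT livers, and 743, 909 and 1029 in the high and 1036, 1165 and 1220.3 in the low KO livers. High livers lay under low livers in both genotypes, in KO by only a few counts, and the log2 difference was −0.44 with a 95% interval of −0.63 to −0.25 (limma, adjusted p = 0.766, and −0.14 with the run). Cdc27, a subunit of the anaphase-promoting complex, held 668, 668 and 766 normalized counts in the high and 830.2, 880.3 and 914 in the low WT livers, and 739.7, 743 and 745 in the high and 806, 819 and 821 in the low KO livers. The 3 high KO livers lay within a few counts of each other, under all low KO livers, and the log2 difference was −0.23 with a 95% interval of −0.36 to −0.10 (−0.11 with the run). Etnppl, an enzyme that breaks down phosphoethanolamine, had the largest log2 difference of these 12, −0.86 with a 95% interval of −1.37 to −0.35, with overlap in KO. Foxa3, a forkhead transcription factor of hepatocytes, had a log2 difference of −0.54 with a 95% interval of −0.87 to −0.22 (−0.33 with the run), with overlap in WT. The interferon regulatory factor Irf5 differed by −0.31 in log2, the DNA ligase Lig4 by −0.56, and the integrator subunit Ints6 by −0.52. Fam65a, Thap4, Mphosph6, Abl2 and Naa16 had log2 differences between −0.49 and −0.24. Of these 12 genes, 9 were apart in both genotypes, against 0.221% of all genes tested, and this count too follows from how they were picked.

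**Figure D3:**
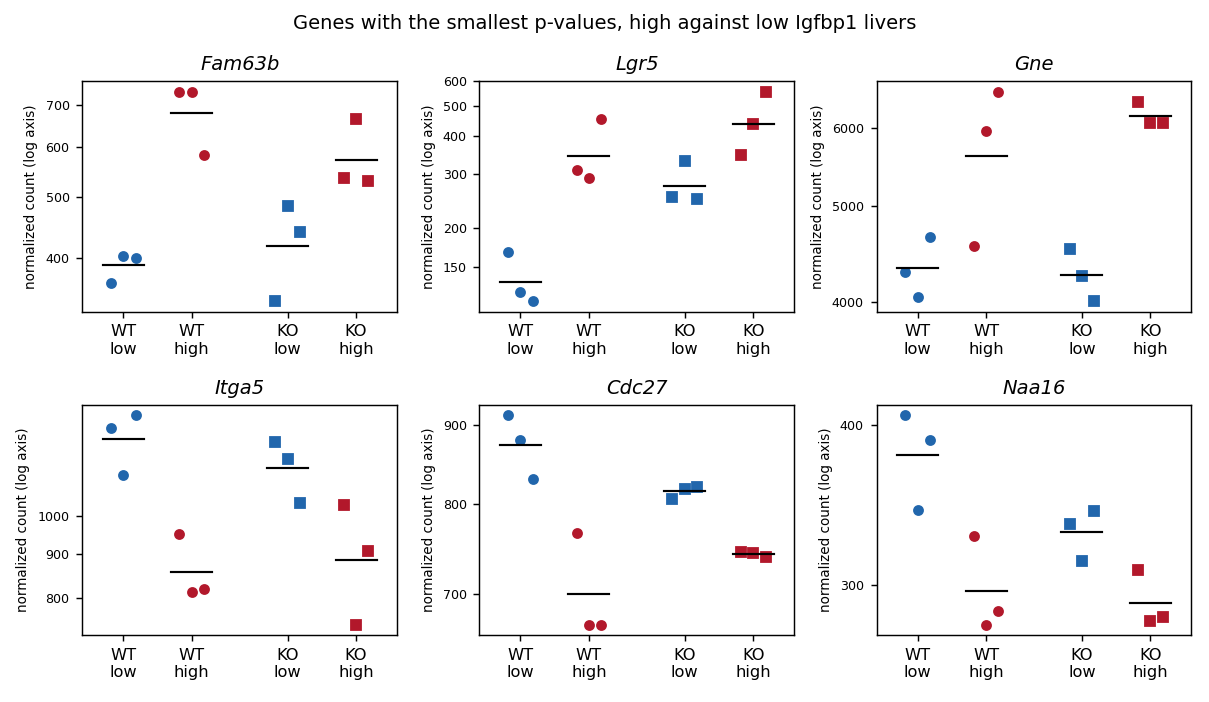
Normalized counts (log axes, 1 panel per gene) of 3 genes with higher and 3 with lower levels in high Igfbp1 livers, by genotype and Igfbp1 group; points are livers and bars geometric means of 3. Fam63b, Lgr5, Itga5, Cdc27 and Naa16 have no overlap of groups within either genotype, and Gne overlaps in WT.

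The 12 genes that DESeq2 called were all among these 24. They were Lgr5, Gne, Fam63b, Crebrf, Tcp11l2, Mars, Slc19a2, Coq10a, Atg14, Slc16a10 and Klhl24 on the higher side and Itga5 on the lower. All 24 kept their direction in each of 27 alternative fits. These fits reuse the livers by which the genes were picked, so they are no separate test of direction. With the run of animal numbers as a term, 13 of the 24 log2 differences came nearer to 0 by over 1.5 times. That of Lig4 went to −0.01, that of Slc19a2 to 0.17 and that of Tmem55b to 0.07. Only Slc16a10 grew by over 1.5 times, to 1.34, and Gne (0.44) and Tcp11l2 (0.79) were among the 10 that moved less. None of the 24 passed the threshold in that fit.

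Among genes that insulin represses, 15 of 19 tested had a higher mean in the high livers, with a median log2 difference of 0.18, against 6895 of 13568 and a median of 0.00203 over all genes tested. The list gave 11 of 19 and 0.13 with the run, and its median went from 0.10 (without KO 5) to 0.24 (without WT 2) as single livers were left out. None passed the test, and 3 of the 19 were under 0.05 in unadjusted p, a limit that 695 of the 13568 genes (5.12%) met. Irs2, at chr8:10984681-11008458, encodes the adaptor that passes the insulin signal on from its receptor. It held 25.5, 220.5 and 306 normalized counts in the high and 18.5, 43.7 and 58.8 in the low WT livers, and 153, 234 and 297 in the high and 60.1, 105 and 180.3 in the low KO livers. WT 5 and WT 6 stood far above the other WT livers, while WT 4, the third high liver, lay among the low ones. On the log2 scale the difference was 1.38 with a 95% interval of 0.19 to 2.58 (limma, adjusted p = 0.946, and −0.49 with the run). Fbxo32, a ubiquitin ligase known as atrogin-1 and a FOXO target, held 54.8, 97.5 and 143 normalized counts in the high and 35.3, 50.7 and 63.2 in the low WT livers, and 61.2, 132 and 137 in the high and 50.2, 64.2 and 74.1 in the low KO livers. High and low livers overlapped in both genotypes, and the log2 difference was 0.82 with a 95% interval of 0.24 to 1.39. Pdk4, the kinase that turns pyruvate dehydrogenase off in fasting, had a log2 difference of 0.53 with a 95% interval of 0.05 to 1.01 (−0.10 with the run).

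The gluconeogenic enzymes spread widely in both groups. Pck1, at chr2:173153048-173159273, encodes the carboxykinase that commits oxaloacetate to glucose synthesis. It held 77994, 83733 and 124721 normalized counts in the high and 25905, 60204 and 87657 in the low WT livers, and 68424, 108182 and 177267 in the high and 68809, 87216 and 94231 in the low KO livers. WT 3 had the lowest and KO 5 the highest level, as for Igfbp1, and in between the groups overlapped. High minus low came to a log2 value of 0.63 with a 95% interval of −0.03 to 1.29 (0.11 with the run). G6pc, the phosphatase that releases free glucose, at chr11:101367561-101377903, held 12081, 13617 and 14447 normalized counts in the high and 3236, 16361 and 18499 in the low WT livers, and 5425, 8767 and 26849.9 in the high and 2718, 3664 and 5743 in the low KO livers. The low WT livers WT 1 and WT 2 were above all high WT livers, and in KO only KO 3 of the low livers passed KO 2 of the high ones. Its log2 difference was 0.96 with a 95% interval of −0.08 to 1.997 (0.38 with the run). Ppargc1a, a coactivator of both enzymes' genes, had a log2 difference of −0.08 with a 95% interval of −0.81 to 0.66 (0.13 with the run). The insulin receptor gene Insr had a log2 difference of 0.10 with a 95% interval of −0.03 to 0.24, and Foxo1 had a log2 difference of −0.22 with a 95% interval of −0.64 to 0.20.

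**Figure D4:**
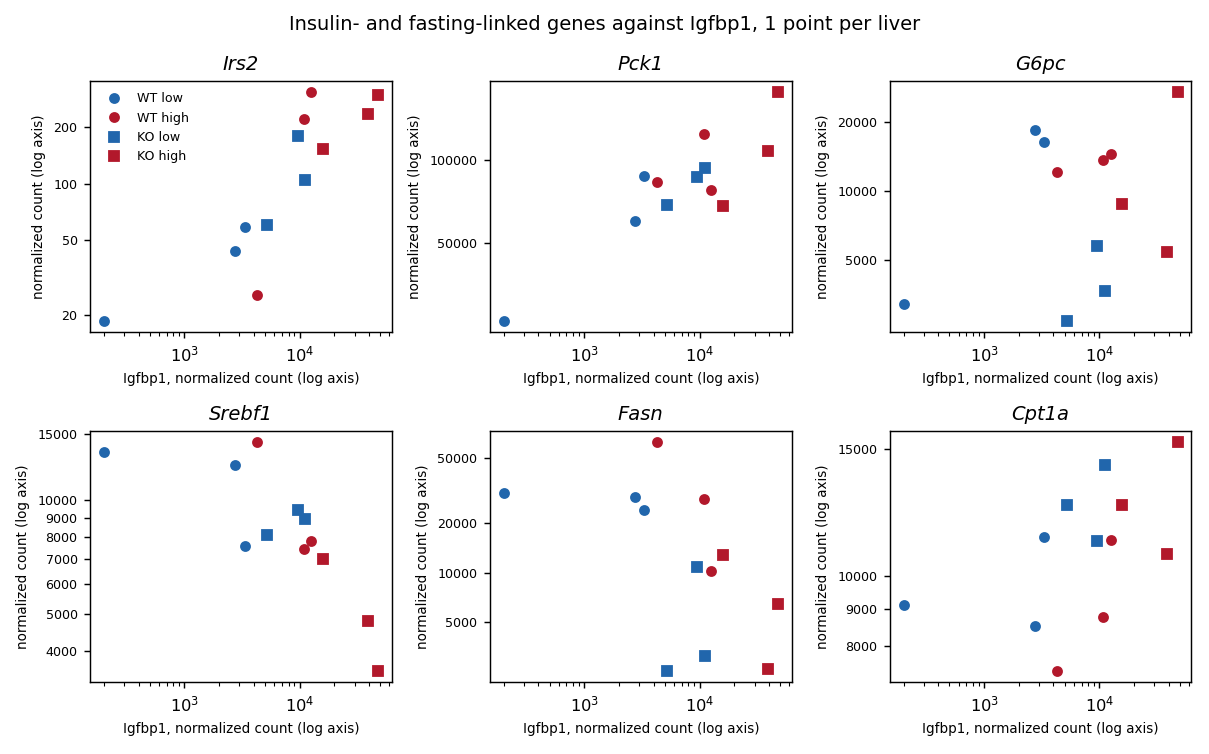
Normalized counts of 6 insulin-linked genes (vertical log axes) against that of Igfbp1 (horizontal log axis), 1 point per liver, circles WT and squares KO, red high and blue low. Irs2 and Pck1 tend to climb with Igfbp1 and Srebf1 tends to descend, with exceptions, while Cpt1a shows no steady course. WT 4 is off the line for Irs2 and Srebf1, and for Pck1 a high KO liver lies under all low KO livers.

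Genes that insulin raises gave mixed values. Srebf1, at chr11:60199089-60222581, encodes the transcription factor of lipid synthesis that insulin induces. It held 7443, 7779 and 14249 normalized counts in the high and 7562, 12434 and 13442 in the low WT livers, and 3543, 4796 and 6983 in the high and 8069.9, 8906 and 9432 in the low KO livers. In KO every high liver was under every low one, whereas in WT the highest value was in a high liver, WT 4. The log2 difference was −0.52 with a 95% interval of −1.01 to −0.03 (limma, adjusted p = 0.946). Fatty acid synthase, Fasn, had a log2 difference of 0.18 with a 95% interval of −0.90 to 1.27 (−0.07 with the run), and the desaturase Scd1 −0.52 with a 95% interval of −2.22 to 1.18 (−1.88 with the run). Both intervals are wide and reach past 1 on the log2 scale. Of 21 genes of fatty acid synthesis 14 had a higher mean in the high livers, with a median of 0.07, and 0 passed. The median was −0.15 within WT and 0.26 within KO, and went from −0.09 (without KO 6) to 0.31 (without WT 6) with single livers left out, at 8 of 21 higher without KO 6.

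Fatty acid oxidation and ketone body synthesis, which fasting raises, gave 14 of 35 genes with a higher mean in high livers and a median of −0.04, with 0 past the test. Without KO 2 it was 19 of 35 and 0.01, without KO 5 10 of 35 and −0.09, and with the run 10 of 35 and −0.18. Cpt1a, the carnitine transferase that lets fatty acids into mitochondria, held 7398, 8780.3 and 11213 normalized counts in the high and 8521, 9123 and 11302 in the low WT livers, and 10714, 12528 and 15307 in the high and 11174, 12551 and 14234 in the low KO livers. High minus low was, in log2, −0.04 with a 95% interval of −0.30 to 0.23 (−0.30 with the run). The fasting hormone Fgf21, at a low level of 16.6 to 45.9 normalized counts in low WT livers, had a log2 difference of 0.49 with a 95% interval of −0.32 to 1.30 (−0.32 with the run). Angptl4, an inhibitor of lipoprotein lipase, had a log2 difference of 0.36 with a 95% interval of −0.26 to 0.97 (0.58 with the run).

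The hormones that oppose insulin were read through 2 lists. Of 13 glucagon and cyclic AMP genes 9 had a higher mean in high livers, with a median of 0.13, and of 16 glucocorticoid genes 12 did, also with a median of 0.13. None passed in either list. With single livers left out, the glucagon median went from 0.07 (without WT 5) to 0.19 (without WT 4). The glucocorticoid median was −0.18 within WT and 0.52 within KO, and went from 0.02 (without KO 5) to 0.25 (without WT 6), at 0.03 without KO 2. It was 0.48 with the run. Nr4a1, a nuclear receptor that cyclic AMP induces within minutes, held 76.1, 135 and 292 normalized counts in the high and 58.5, 63.5 and 78.7 in the low WT livers, and 102, 281 and 474 in the high and 92.2, 126 and 176 in the low KO livers. KO 5 and WT 6 were the highest of their genotypes, WT 5 lay among the low WT livers and KO 6 among the low KO livers. On the log2 scale the difference was 1.01 with a 95% interval of 0.20 to 1.82. Tat, the tyrosine aminotransferase induced by glucocorticoids and glucagon, had a log2 difference of 0.37 with a 95% interval of −0.29 to 1.02. Tsc22d3, a direct glucocorticoid target also known as Gilz, had a log2 difference of 0.15 with a 95% interval of −0.31 to 0.61 (0.50 with the run), and KO 5 alone stood out at 8457 normalized counts against 3898 to 4624 in the other KO livers. Dusp1, a phosphatase of stress kinases, had a log2 difference of 0.40 with a 95% interval of −0.22 to 1.02 (0.65 with the run). That difference was −0.11 within WT, where high and low livers overlapped, and 0.91 within KO, where they were apart.

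Amino acid shortage acts through ATF4, and 16 of 22 of its targets had a higher mean in high livers, with a median of 0.06 and 0 past the test. That median went from 0.03 (without KO 5) to 0.14 (without KO 2). Chac1, at chr2:119351229-119354381, an enzyme that breaks down glutathione, held 49.7, 169 and 468 normalized counts in the high and 35.0, 37.1 and 159 in the low WT livers, and 65.8, 205 and 222 in the high and 17.6, 29.8 and 68.4 in the low KO livers. WT 5 was the highest of all, and WT 4 and KO 6 of the high group lay among the low livers. High minus low came to a log2 value of 1.75 with a 95% interval of 0.48 to 3.02 (limma, adjusted p = 0.946, and 0.71 with the run). Atf4 itself had a log2 difference of 0.07 with a 95% interval of −0.12 to 0.27 (−0.12 with the run), and Asns, the asparagine synthetase it induces, −0.14 with a 95% interval of −0.62 to 0.34 (−0.22 with the run). Of 18 immediate early genes 16 had a higher mean, with a median of 0.40, 0.09 within WT and 0.46 within KO. Over both genotypes the median was 0.25 without KO 5. Egr1, the zinc finger factor of that list, ranged over 579 to 1123 in high and 245 to 598 in low WT livers. In KO it was 5459 in KO 5 and 826 to 1021 in the other KO livers, and the log2 difference was 0.97 with a 95% interval of 0.07 to 1.88 (0.21 with the run). Klf2 had a log2 difference of 0.39 with a 95% interval of 0.13 to 0.65. Genes of growth hormone and IGF signalling, which include partners of Igfbp1, had 9 of 20 higher and a median of −0.0029, from −0.01 (without KO 4) to 0.09 (without KO 2) with single livers left out and −0.16 with the run. Igf1 had a log2 difference of −0.03 with a 95% interval of −0.94 to 0.89 (−0.87 with the run), and Igfbp2, another binding protein of the same family, −0.12 with a 95% interval of −0.44 to 0.20.

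Of 18 circadian clock genes 12 had a higher mean in high livers, with a median of 0.07, which went from 0.01 (without WT 1) to 0.16 (without WT 5) with single livers left out. None passed, and 4 of 18 had an unadjusted p under 0.05, against 695 of 13568 (5.12%) over all genes. Rora, a nuclear receptor that activates the clock gene Bmal1, held 1190.2, 1613 and 1711 normalized counts in the high and 971, 977 and 1242 in the low WT livers, and 1379.8, 1497 and 1578 in the high and 1237, 1242 and 1347 in the low KO livers. High livers were above low livers in KO, and only WT 4 overlapped in WT. The log2 difference was 0.36 with a 95% interval of 0.13 to 0.58 (−0.02 with the run). Nr1d2, a repressor of the same gene, had a log2 difference of 0.33 with a 95% interval of 0.12 to 0.54 (0.05 with the run). The repressor Cry2 had a log2 difference of 0.36 with a 95% interval of 0.12 to 0.60, and Clock −0.38 with a 95% interval of −0.65 to −0.11 (−0.18 with the run). All livers were taken at about 10 am, and the labels give no time for each one.

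Hepcidin is the liver hormone that limits iron uptake, and the mouse has 2 genes of that name, Hamp and Hamp2. Whether the products of both act on iron was not tested. Hamp2, at chr7:30922372-30924681, held 11713, 21255 and 31412 normalized counts in the high and 4836, 7719 and 12491 in the low WT livers, and 883, 1331 and 1561 in the high and 272, 549 and 962 in the low KO livers. The groups overlapped in each genotype by 1 liver, and high minus low was, in log2, 1.29 with a 95% interval of 0.56 to 2.01 (limma, adjusted p = 0.946, and 0.66 with the run). Hamp had a log2 difference of 1.64 with a 95% interval of −0.15 to 3.43. The 2 genes are close copies, and reads may be split between them. Both belong to the acute phase list, where 23 of 23 genes had a higher mean in high livers with a median of 0.22. That count was 12 of 23 and the median 0.0086 without KO 2, and 7 of 23 and −0.13 without WT 6 and KO 2. The median was 0.44 without KO 5, 0.36 without KO 6 and 0.69 with the run. The cause was not tested.

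Among the lipid droplet genes 14 of 23 had a higher mean, with a median of 0.04, −0.06 within WT and 0.10 within KO, and 0.20 with the run. It went from 0.02 (without KO 5) to 0.09 (without KO 1) with single livers left out. Lpin2, a phosphatidate phosphatase of triglyceride synthesis, held 5433, 7608 and 11246 normalized counts in the high and 3585, 4140.1 and 4683 in the low WT livers, and 3293, 7169 and 16312 in the high and 4133, 4235 and 5885 in the low KO livers. It was apart in WT and overlapped in KO, where KO 5 was highest and KO 2 lowest, and the log2 difference was 0.77 with a 95% interval of 0.09 to 1.45 (0.27 with the run). G0s2, an inhibitor of adipose triglyceride lipase that insulin raises, held 266, 629 and 668 normalized counts in the high and 610.2, 991 and 1433 in the low WT livers, and 359, 569 and 732 in the high and 600.4, 805 and 2751 in the low KO livers. KO 1 carried the highest level of all, and the log2 difference was −1.02 with a 95% interval of −1.84 to −0.20 (−0.18 with the run). Ppp1r3g, a glycogen-targeting subunit of protein phosphatase 1 known to be induced by fasting, held 33.1, 94.4 and 327 normalized counts in the high and 22.3, 59.5 and 92.9 in the low WT livers, and 19.8, 136 and 353 in the high and 6.74, 16.6 and 32.3 in the low KO livers. WT 5 and KO 5 were the highest of their genotypes and WT 4 and KO 2 lay among the low livers, at a log2 difference of 1.80 with a 95% interval of 0.17 to 3.43 (0.42 with the run).

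Some lists leaned one way as a whole without a single member past the test. All 25 cholesterol synthesis genes had a higher mean in high livers, with a median of 0.53, 0.14 within WT and 0.83 within KO. Hmgcs1, the synthase of that pathway, held 19760.1, 24959.5 and 36620.5 normalized counts in the high and 18226, 19616 and 23314 in the low WT livers, and 2455, 25726 and 31426 in the high and 2476, 3066 and 21161 in the low KO livers. KO 1, KO 2 and KO 4 lay between 2455 and 3066, under all other livers, so these low values came from 1 high and 2 low KO livers. The median went from 0.26 (without KO 6) to 0.88 (without KO 2). With the run of animal numbers as a term 0 of 25 were higher, with a median of −0.46. Of 30 cell cycle genes 23 had a lower mean, with a median of −0.33, −0.71 within WT and −0.01 within KO. It went from −0.58 (without KO 1) to −0.08 (without KO 2), was 0.07 without WT 6 and KO 2, and was −1.23 with the run, where 29 of 30 were lower. Of 24 interferon genes 22 had a higher mean, with a median of 0.17, 0.03 within WT and 0.32 within KO. Over both genotypes the median went from 0.04 (without KO 5) to 0.29 (without KO 2), and with the run 12 of 24 were higher. The 24 pathway lists held 443 distinct genes, of which 28 (6.32%) had an unadjusted p under 0.05, close to the 5.12% over all genes, and 0 passed.

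Genes were also ranked by how closely they followed Igfbp1 from liver to liver, as the correlation of log2 values over 12 livers after the genotype means were taken out. The livers share their libraries and scaling, and the ranks describe these data with no test. Closest were Rnf220 (0.917), Wdr7 (0.909), Trp53inp1 (0.901), Nedd1 (0.894) and Zfhx4 (0.889). On the opposite side were Klhl42 (−0.878), Mphosph6 (−0.872), Ajuba (−0.871), Nop2 (−0.869) and Cstf3 (−0.867). This order rests on WT 3, which lies far from the rest. Of these 10 only Wdr7 was still among the 5 closest on its side without it, at 0.911. Trp53inp1 then had 0.848, Rnf220 0.792, Zfhx4 0.739 and Ajuba −0.700. In the order without WT 3, computed after the first was seen, Bcl2l11 (0.924), Atg14 (0.924), Crebrf (0.921), Wdr7 and Rxrb (0.910) were closest. On the opposite side were then Gprc5c (−0.916), Irf2bp1 (−0.900), Pbx2 (−0.893), Kank2 (−0.887) and Ints6 (−0.885). Trp53inp1, a p53-induced autophagy protein, held 2419, 2686 and 3066 normalized counts in the high and 986, 2099.8 and 2394 in the low WT livers, and 2364, 4860.3 and 5776 in the high and 2134, 2137 and 2218 in the low KO livers, apart in both genotypes. Among the insulin-linked genes the correlation was 0.887 for Pck1, 0.825 for Irs2, 0.749 for G6pc and Pdk4, −0.689 for Srebf1 and 0.155 for Cpt1a. Without WT 3 it was 0.726 for Pck1, 0.825 for Irs2, 0.556 for G6pc, 0.841 for Pdk4, −0.789 for Srebf1 and 0.201 for Cpt1a. Fitting log2 Igfbp1 as a number called 0 genes (limma), with 724 at an unadjusted p under 0.05 and a smallest adjusted p of 0.183, that of Trp53inp1.

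Taken within a genotype, 3 livers against 3, limma called 0 genes in WT (0%), with 646 at an unadjusted p under 0.05, and 1 gene in KO (0.00737%), with 590. In WT edgeR called 0 and DESeq2 4 (Slc19a2, Lgr5, Grb7 and Fam63b, named for being called). The KO gene was Rgs16, at chr1:153740349-153745468, a GTPase-activating protein that shuts off G protein signals in hepatocytes and is known to vary with feeding and the time of day. It held 2983, 4168 and 5669 normalized counts in the high and 3393, 3504 and 4775 in the low WT livers, and 1752, 3786 and 6272 in the high and 169, 176 and 267 in the low KO livers. The 3 low KO livers stood apart from all 9 other livers, and WT livers showed no such split. Within KO the log2 difference was 4.11 (limma, adjusted p = 0.00627), and within WT 0.10. edgeR (adjusted p = 0.0141) and DESeq2 (2.41e-25) also called Rgs16 within KO. The limma call in KO was lost without KO 4 (adjusted p = 0.0708), without KO 6 (0.0609) and in a fit of the 6 KO livers alone (0.612).

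The difference of the change between KO and WT was tested directly, and limma called 0 genes (0%), with 589 at an unadjusted p under 0.05, edgeR 0 and DESeq2 7. Rgs16 had the smallest p, with a difference of 4.01 on the log2 scale and an adjusted p of 0.237 (limma). The 7 that DESeq2 called were Rgs16 (adjusted p = 2.84e-10), Wnt2 (0.0309), BC048546, Ralgapa2, Arf6 and Gsta2 (each 0.0346) and Adam11 (0.0426). Gsta2 and Adam11 were named for being called. Wnt2, a Wnt ligand that endothelial cells of the central vein secrete, held 73.4, 113 and 166 normalized counts in the high and 125, 163 and 169.7 in the low WT livers, and 152, 198 and 228 in the high and 67.2, 67.4 and 72.5 in the low KO livers. The 3 low KO livers were lowest of all, the groups overlapped in WT, and the difference of the change was 1.88 (limma, adjusted p = 0.986). BC048546 held 302, 468 and 552 normalized counts in the high and 176, 230.3 and 253 in the low WT livers, and 435, 611 and 707 in the high and 780.1, 808 and 1013 in the low KO livers. High livers were above low ones in WT and under them in KO, with a difference of the change of −1.56. Ralgapa2, Arf6 and Rps27a were apart in opposite ways, lower in high WT livers and higher in high KO livers, and for Rps27a, a ribosomal protein gene with many pseudogenes, reads may be shared with copies.

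**Figure D5:**
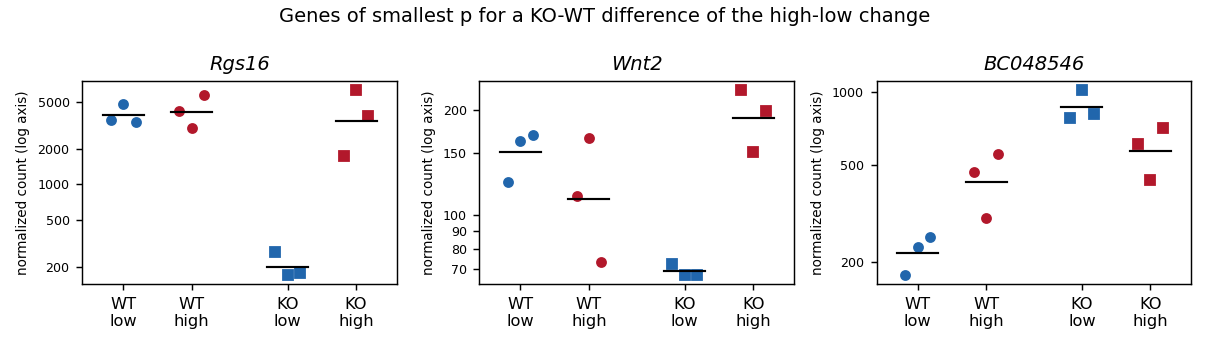
Normalized counts (log axes) of Rgs16, Wnt2 and BC048546 by genotype and Igfbp1 group; points are livers, bars geometric means of 3. Rgs16 and Wnt2 are lowest in the 3 low KO livers, and BC048546 has the groups apart in opposite ways in WT and KO.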

How the data were processed

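Liver RNA of 12 mice was sequenced from total RNA libraries (TruSeq), per the labels' protocols. STAR, featureCounts, FastQC, DESeq2 and mm10 are named, without versions, in the submitters' processing notes. For strand setting and annotation, nothing is given in the sources used here. The authors deposited a signal per gene, read counts divided by 1 factor per library, from which whole reads were recovered (100% of values whole to a tolerance of 0.001 reads). The authors' deposited log2 fold changes and p-values of KO against WT were not used.

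limma 3.58.1 (R 4.3.3, trend) was fitted to log2(normalized count + 1) for genes with a mean of at least 10, with genotype and Igfbp1 group as terms, and in a fit of 4 groups for changes within a genotype and their difference. Two-sided p-values were adjusted by Benjamini and Hochberg over all genes tested, with a threshold of 0.05. A log2 difference is on that scale and understates low genes. edgeR 4.0.16 and DESeq2 1.42.0 ran on recovered reads as alternatives. The procedure was tested on simulated data. Of 17714 gene rows 508 equal an earlier one.

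The members and the gene lists were chosen with earlier results of these data known. Named were 12 genes of smallest p in each direction with a mean of at least 50, up to 4 per pathway list, 5 closest to Igfbp1 in each direction, and 6 for the difference between genotypes. Others, such as Fasn, Cpt1a, Igf1 and Grb7, were added after their values were seen. Depth was 21769795 to 31296485 reads.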

Additional observations from a re-analysis of the deposited data

Results flagged for a closer look

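Single livers far from the other 5 of their genotype were sought with Dixon's gap test on the log2 scale, in 107 genes that include those described above and others of the same lists, without Igfbp1. It marked 13 of 214 groups of 6, and chance marks about 1 in 20. WT 3 accounts for 5 of them. It held 3236 normalized counts of G6pc (others 12081 to 18499), 986 of Trp53inp1 (others from 2099.8 to 3066), 382 of Rnf220 (others 477 to 540.4) and 255 of Zfhx4 (others 357 to 411), each the lowest of WT. Its 399 of Ajuba was the highest (others 169.7 to 222). All of these but G6pc were named for following Igfbp1, which is lowest of all in WT 3, so their place there is part of how they were picked.

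KO 5, the liver with the most Igfbp1, held 5459 of Egr1 (others 826 to 1021), 8457 of Tsc22d3 (others 3898 to 4624) and 1889.8 of Cry2 (others 1172 to 1401), the highest of KO in each case. KO 6 had the lowest Clock, 439 (others 649 to 753). KO 2 had the lowest Cyp7a1, the gene of the rate-limiting enzyme of bile acid synthesis, at 764 (others 6241 to 19815). KO 1 had the lowest Tmem55b, 455 (others 581 to 659). WT 6 had the highest Insr, 3934 (others 3217 to 3453), and WT 4 the highest Ifi27, an interferon-induced gene, at 2040.2 (others 1425 to 1585). Egr1, Cry2, Clock, Tmem55b, Ifi27 and G6pc were named for a small p between high and low livers. Each flagged liver went in the direction of that difference, so its place too is part of how these genes were picked.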

How the results depend on the processing

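The count of 0 genes between high and low livers stayed at 0 under the other pseudocounts, filters, scalings, robust moderation, library weights, edgeR, Igfbp1 as a number, the top and bottom 2 only, no genotype term, the animal-number run and the omission of WT 6 with KO 2. It was 12 with DESeq2, and 0 to 1 when each library was left out, the 1 being Gne without WT 4. Within WT it was 4 with DESeq2 and 0 to 1 without a library (Mettl7a3 without WT 3). Within KO it was 0 in a separate fit and 0 to 5 without a library: 5 without KO 1, 2 without KO 2 or KO 3, and 0 without KO 4 or KO 6. For the difference between genotypes it was 7 with DESeq2 and 0 to 1 without a library (Rgs16 without KO 2). The cause was not tested. No call was reversed. Among values of single genes under an alternative, 94 changed sign, none of them past the threshold, and 2831 kept both sign and call. Another 15 kept their sign and passed only under the alternative, and 3 kept their sign and lost their call. No paired analysis was possible because the labels give each mouse its own number and no number is shared between groups. The median SE of 0.119, for high against low over all 12 livers, limits which differences can be seen. It does not hold within a genotype, with 3 livers per group. Gne, for example, had an SE of 0.120 within each genotype against 0.0845 over all 12 livers.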

Other observations

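Genes of hepatocytes around the central vein were looked at after Lgr5 had been seen, and none passed the test. Glul, the glutamine synthetase that marks these cells, held 32934, 38033 and 38438 normalized counts in the high and 33139.6, 37089 and 41363 in the low WT livers, and 38258, 44592 and 48538 in the high and 16183, 20068 and 35426 in the low KO livers. It was apart in KO only, with a log2 difference of 0.46 with a 95% interval of −0.0036 to 0.93 (1.30 with the run), and without KO 1 the change within KO passed (1.27, adjusted p = 0.0294, limma). Rhbg, an ammonium transporter, had a log2 difference of 0.50 with a 95% interval of 0.04 to 0.97 (1.15 with the run), the glutamate transporter Slc1a2 0.43 with a 95% interval of −0.03 to 0.89 (1.27 with the run), the cytochrome Cyp2e1 0.31 with a 95% interval of −0.10 to 0.73 and the Wnt target Axin2 0.07 with a 95% interval of −0.51 to 0.65 (0.73 with the run). The low KO livers KO 3 and KO 4 had the lowest Glul of all 12, while KO 1 did not. With the run of animal numbers as a term, Glul, Rhbg and Slc1a2 each had an adjusted p of 0.227 (limma), a comparison that rests on the 4 livers of run 3. Within a genotype, that is KO 2 against KO 3 and KO 4.

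Prodh, the first enzyme of proline breakdown, had a log2 difference of 0.49 with a 95% interval of 0.07 to 0.91 (1.30 with the run), and its adjusted p with the run was also 0.227 (limma). The imprinted gene Mest had a log2 difference of −0.65 with a 95% interval of −1.21 to −0.10 (−1.68 with the run). Grb10, an imprinted adaptor that dampens insulin and growth factor receptors, was lower in each high than in each low liver of its genotype, at 734, 771 and 771 against 825, 839 and 882 in WT and 973, 1020.3 and 1049 against 1050.2, 1197 and 1210.0 in KO, with a log2 difference of −0.17 with a 95% interval of −0.29 to −0.06 (limma, adjusted p = 0.946). Tff3, a secreted trefoil peptide, ranged over 732 to 1819 in high and 2192 to 3516 in low KO livers, with a log2 difference of −0.88 with a 95% interval of −1.56 to −0.19. That difference was −0.32 within WT, where high and low livers overlapped, and −1.44 within KO.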
